A study of Mus musculus with 24 samples.

Results

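The testes of mice that lack Thumpd1 were compared with wild-type testes across all genes with enough reads to test. A gene entered when it reached 1 CPM (a count scaled to a common library total) in at least 4 of the 8 testes libraries, which kept 19329 of the 55450 genes in the table. The 8 libraries were 4 wild-type (WT, replicates 1 to 4) and 4 knockout (KO, replicates 5 to 8) out of 24 in the series, which also holds liver and cerebellum. KO mice carried on both Thumpd1 alleles a frameshift deletion made with CRISPR-Cas9 in C57BL/6N eggs, in a line kept on the C57/BL6 background. WT mice were Wildtype at Thumpd1 and came, where the study does not say otherwise, from the same litters. Animals of both groups were 6 to 12 weeks old, and no treatment is listed for either. The deletion was present in the whole body, so germ cells, supporting cells and the rest of the animal lacked the gene together. Several founder lines were made, and the labels do not say which line gave these libraries. The study calls the libraries of a group biological replicates, and the p-values measure the spread between them.

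Thumpd1 is an adapter protein that brings the acetyltransferase Nat10 to tRNAs for serine and leucine, where Nat10 makes the modified base N4-acetylcytidine. The testis turns stem cells into sperm along a fixed series. Spermatogonia divide, spermatocytes recombine and segregate their chromosomes in meiosis, and the resulting haploid spermatids build an acrosome and a tail while protamines replace their histones. Sertoli cells nurse these germ cells inside the tubule and seal it with the blood-testis barrier, Leydig cells outside the tubule make testosterone, and peritubular cells wrap the tubule wall. The X and Y chromosomes are transcriptionally silenced in spermatocytes, and many X-linked genes have autosomal copies that are active only in germ cells. Each CPM value below is a share of the reads counted in the piece of tissue, most of them from germ cells. Ribosomal RNA had been removed, and the log2 changes are from normalized values. In such bulk samples a smaller number of cells of a type and less RNA per cell cannot be told apart.

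Total counts were between 27273231 and 36621604 per library, and 3 counts, the limit that a count of 0 allows, were worth at most 0.110 CPM, a limit for counting error only. The KO libraries were not alike. On the first principal component of the normalized values, which held 36.75% of the variance, WT libraries lay from -25.1 to -10.8, KO replicates 5 and 6 at 5.01 and 6.26, and KO replicates 7 and 8 at 38.7 and 31.1. The labels give no reason for this, so many of the counts and medians are also given without KO replicates 7 and 8. Transcripts of the epididymis, the duct beside the testis, also differed by library. Crisp1, a secreted epididymal protein, was at 0.0623, 95.2, 0.401 and 0.157 CPM in WT and 23.7, 22.8, 13.3 and 18.3 CPM in KO. WT replicate 2 was far above the other WT libraries and above all KO libraries, and the 3 other WT libraries were near 0. Adam7, a membrane protein of the epididymal lining, was at 0, 15.3, 0 and 0.0628 CPM in WT and 5.09, 4.91, 3.22 and 4.53 CPM in KO, in the same pattern. The fold changes of these genes turned on 1 WT library: limma gave Crisp1 a log2 change of 3.86 and edgeR, which averages counts, gave -0.37. Of the 12 epididymal markers 4 were tested, and Lcn5 was at 0 in all 8 libraries. The germ cells of the testis also express Spink2, which made up most of the list, at 179.9, 178, 172 and 174 CPM in WT and 179, 175, 144 and 136 CPM in KO. The summed level of the 12 was 182, 292, 174 and 176 CPM in WT and 212, 206, 164 and 161 CPM in KO. The part of epididymal tissue in the results below was not tested. Markers of every germ cell stage and of Sertoli, Leydig and peritubular cells were present in all libraries. The alpha-globin Hba-a1 was at 0 in all 8, but the ribosomal RNA removal kit also takes out globin messages. Of the other red cell genes Alas2, an enzyme of heme synthesis, had a change of 0.025 that was not called, and the summed red cell list was 13.8 to 15.3 CPM in WT and 14.8 to 17.7 CPM in KO.

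**Figure D1:**
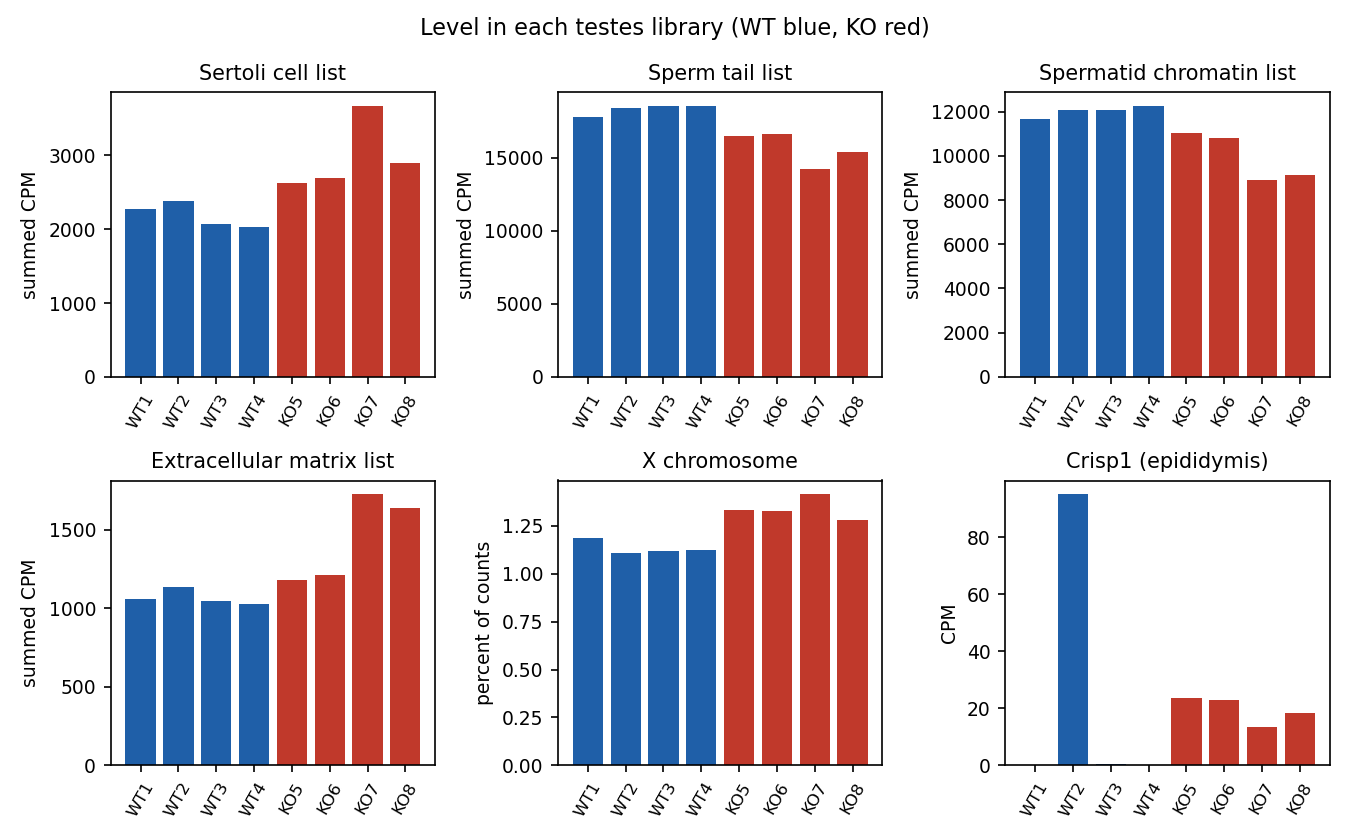
Level in each of the 8 testes libraries, with WT replicates 1 to 4 in blue and KO replicates 5 to 8 in red. Bars show the summed CPM of 4 gene lists, the percent of counts from the X chromosome and the CPM of Crisp1. The Sertoli list and the X chromosome are higher in all 4 KO libraries than in any WT library, the sperm tail and spermatid chromatin lists are lower, the matrix list is highest in KO replicates 7 and 8, and Crisp1 is highest in WT replicate 2.

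The KO testes differed from WT in many transcripts, most of them by small amounts. With limma-voom and a Benjamini-Hochberg adjusted p under 0.05, 3957 of 19329 genes (20.5%) were called: 1882 (9.74%) were higher in KO and 2075 (10.7%) lower. The median size of a called change was 0.39 on the log2 scale, and 301 genes rose and 403 fell by at least 1.5-fold. Changes of at least 1 on the log2 scale were found for 27 genes that rose and 51 that fell. The 4 KO libraries did not overlap the 4 WT libraries in 5524 genes (28.6%), lying above them in 3629 (18.8%) and below them in 1895 (9.8%). Read against library totals instead of quantiles, the split was 3184 higher and 1536 lower, and the median of all genes moved by 0.07. Without KO replicates 7 and 8, 3630 genes were called, and 2652 of the 3957 were called again in the same direction. The count of called genes rested on single libraries too: it was 2597 without WT replicate 2, 1711 without WT replicate 3, 1724 without WT replicate 4 and 2545 without KO replicate 7, and 1507 genes were called whichever library was left out. Most counts of 5 or fewer calls in a list moved by over 1.5 times in at least 1 of the fits, and such counts are descriptions. A gene that reached 1 CPM only in the libraries of 1 group had to differ to be tested. There were 25 such genes with all 4 WT libraries past that level and 46 with all 4 KO libraries past it.

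Thumpd1 itself (GRCm38 chr7:119715093-119720798, minus strand) was at 24.3, 26.3, 24.7 and 25.4 CPM in WT and 0.768, 1.14, 1.12 and 0.796 CPM in KO, and the KO mean was 3.79% of the WT mean (log2 change -4.81, SE 0.15, limma adjusted p = 2.71e-08). No KO library came near a WT library. Nat10, the enzyme it serves, was at 55.6, 56.1, 55.5 and 57.8 CPM in WT and 57.8, 58.8, 62.6 and 61.4 CPM in KO. All 4 KO libraries lay above all 4 WT libraries, yet the change of 0.057 was not called (adjusted p = 0.448). Among 21 tested genes of tRNA acetylation and the handling of stalled ribosomes, 2 rose and, beside Thumpd1, 2 fell, with 20.5% of all genes called. Without WT replicate 3 or WT replicate 4, Thumpd1 was the only one called. Ltn1, the ligase that tags the unfinished chain on a stalled ribosome, fell by 0.18, and Gtpbp1 and Gtpbp2, related GTPases that release ribosomes stalled for want of a tRNA, changed by 0.25 and -0.20. Of 22 cytosolic tRNA synthetases only the isoleucine enzyme Iars was called, higher by 0.30, with a list median of 0.039, and DESeq2 gave 3 rises and 1 fall. Without WT replicate 3 or WT replicate 4 none of the 22 was called. Ribosomal proteins gave 1 rise and 3 falls of 78, with a median of -0.027 beside a median near 0 for all genes. The falls were 6, 8 and 6 in edgeR, DESeq2 and limma with TMM factors, a scaling of library totals, with medians of -0.076, -0.079 and -0.081. Leaving out KO replicate 8 alone gave 6 rises and a median of 0.041, and leaving out WT replicate 2 gave a median of 0.0035. With KO replicates 7 and 8 left out the list gave 15 rises and 2 falls, with a median of 0.057.

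Among mitotic germ cells, 4 of 24 spermatogonial genes rose and 3 fell, beside 9.74% higher and 10.7% lower over all genes, with a list median of 0.20. Zbtb16, the zinc finger factor that maintains spermatogonial stem cells, was at 11.2, 8.66, 8.66 and 8.52 CPM in WT and 13.4, 15.4, 16.7 and 20.8 CPM in KO (log2 change 0.72, SE 0.13, limma adjusted p = 0.00619). Every KO library was above every WT library, and KO replicate 8 was the highest. Bcl6b and Lin28a, which act in self-renewal and in early progenitors, rose by 0.44 and 0.39. Eomes, a T-box factor of a stem cell subset, was lower, at 1.25, 1.61, 1.94 and 1.60 CPM in WT and 0.608, 0.587, 0.273 and 0.450 CPM in KO (log2 change -2.16, SE 0.29, limma adjusted p = 0.00202). All KO libraries were below all WT libraries. Eomes was past 1 CPM in WT only and so had to differ in order to be tested, and an annotated gene lies on its other strand. Lhx1, a further stem cell factor, fell by 0.74, while the stem cell receptor Gfra1 was at 3.21, 3.32, 3.11 and 2.99 CPM in WT and 2.94, 2.82, 3.60 and 3.36 CPM in KO and was not called. Kit, the receptor of differentiating spermatogonia, was at 42.3, 41.5, 41.2 and 37.2 CPM in WT and 35, 35.7, 56.1 and 46.5 CPM in KO: KO replicates 5 and 6 lay below all WT libraries and KO replicates 7 and 8 above all of them. Its change was near 0 over all libraries and -0.26 without KO replicates 7 and 8, where limma called it lower (adjusted p = 0.0157). The median of the list likewise moved to -0.012 without those libraries. The count of rises was 1 without WT replicate 2, WT replicate 3 or WT replicate 4, 2 without KO replicate 7 or KO replicate 8 and 8 without KO replicate 5, and the falls were 1, 0 and 0 without WT replicates 2, 3 and 4 in turn.

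Meiotic genes were called in both directions, beside 20.5% called over all genes. Of 38 genes for strand breaks, cohesin, the synaptonemal complex and crossovers, 2 rose and 2 fell, with a median of 0.050. Prdm9, the histone methyltransferase that places meiotic strand breaks, was at 7.20, 7.51, 7.25 and 7.29 CPM in WT and 9.18, 10.4, 13.2 and 13.5 CPM in KO (log2 change 0.53, SE 0.12, limma adjusted p = 0.0120). The KO libraries were all above the WT libraries, and KO replicates 7 and 8 were the highest. Brca2, which loads recombinases on broken DNA, rose by 0.21, while the synaptonemal protein Syce3 fell by 0.43 and the meiotic cohesin Rec8 by 0.21. Sycp3, a core of the chromosome axis, and Dmc1, the meiotic recombinase, had changes of 0.26 and 0.28 that missed the threshold (adjusted p = 0.0855 and 0.0544). Of 23 genes of late spermatocytes, 3 fell and 1 rose, with a median of -0.10. The falls were Aurkc, a kinase of the meiotic spindle, by 0.39, Cdc25c, a phosphatase of division entry, by 0.32, and the meiotic cyclin Ccna1, by 0.21. Hspa2, the chaperone of spermatocytes, was at 1062, 1114, 1149 and 1144 CPM in WT and 1078, 1093, 1086 and 1077 CPM in KO and was not called. The falls among late spermatocyte genes were 9, 11, 8 and 6 in edgeR, DESeq2 and limma with TMM factors or library totals, and 0 without WT replicate 3, WT replicate 4 or KO replicate 7. Of these genes 3 rose and 2 fell without KO replicates 7 and 8, with a median of -0.044. In the recombination list 7 rose and 1 fell without KO replicates 7 and 8, and 0 fell without WT replicate 3, WT replicate 4 or KO replicate 7. The piRNA pathway gave 2 rises and 1 fall of 21, with a median near 0, and none was called without WT replicate 2, WT replicate 3 or WT replicate 4.

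Among genes of spermatids falls outnumbered rises. All 33 tested genes of the fibrous sheath, dense fibres and tail kinases had a negative change, 16 of them fell and 0 rose, and the median was -0.19, beside 10.7% lower and a median near 0 over all genes. Tekt5, a filament protein of the tail, was at 139, 163, 159 and 159.6 CPM in WT and 109, 114, 112 and 112 CPM in KO (log2 change -0.46, SE 0.060, limma adjusted p = 0.00194). The KO libraries were close together, and all lay below the WT libraries. Tssk6, a kinase needed for late spermatid shaping, was at 311, 341, 353 and 342 CPM in WT and 253, 260.1, 228 and 231 CPM in KO, and Odf1, a main dense fibre protein, was at 805, 896, 907 and 875 CPM in WT and 708, 723, 634 and 739 CPM in KO, again with no overlap (log2 change -0.43, SE 0.054, limma adjusted p = 0.00184; log2 change -0.24, SE 0.051, limma adjusted p = 0.0103). Akap4, the main fibrous sheath protein, was at 1433, 1400.3, 1514 and 1531 CPM in WT and 1392, 1388, 1188 and 1192 CPM in KO, and its change of -0.13 was not called. Tssk6 and the tail genes Fscn3 and Oaz3 overlap a gene on the other strand, and the strand used in counting is not given in the sources used here.

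The acrosome list held 10 falls and 0 rises of 28, beside 10.7% lower over all genes, with a median of -0.22. Spaca4, a protein of the acrosome membrane, was at 70.1, 75.8, 73.1 and 69.6 CPM in WT and 58.3, 57.6, 48.2 and 48.1 CPM in KO (log2 change -0.51, SE 0.084, limma adjusted p = 0.00425). Izumo1, the sperm partner in fusion with the egg, fell by 0.27, and Izumo2, Eqtn and Spaca3 fell by 0.41, 0.46 and 0.33. The round spermatid markers Acrv1 and Spaca1 had changes of -0.23 and -0.25 that were not called. Among 16 genes of histone replacement 5 fell and 0 rose, with a median of -0.10. Prm1, a protamine, was at 2803, 2783, 2758 and 2714 CPM in WT and 2468, 2325, 1724 and 1844 CPM in KO (log2 change -0.27, SE 0.075, limma adjusted p = 0.0273). KO replicates 7 and 8 were the lowest, and KO replicates 5 and 6 lay between them and the WT libraries. Prm2, the partner protamine, was at 2938, 3245, 3085 and 3251 CPM in WT and 2810.5, 2705, 2134 and 2313 CPM in KO, and the transition protein Tnp2 fell by 0.15. Tnp1, the other transition protein, was at 591, 519, 557 and 640.0 CPM in WT and 631, 609, 403 and 399 CPM in KO: only KO replicates 7 and 8 were below the WT range.

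Lrrc52, a subunit of the sperm potassium channel that gives sperm their alkaline-activated current, had the lowest p among the falls of sperm channels and was at 21.9, 23.5, 21.4 and 21.1 CPM in WT and 14.6, 14.3, 14.4 and 14.9 CPM in KO (log2 change -0.70, SE 0.069, limma adjusted p = 0.000715). The KO values lay within 14.3 to 14.9 CPM, a narrower spread than that of the protamines. Catsper1, Catsper3, Catsperz and Efcab9, parts of the calcium channel complex that drives hyperactive swimming, fell by 0.23, 0.29, 0.37 and 0.36. In all 5 of 23 channel genes fell and 2 rose, with a median of -0.093. The largest change of the list was a rise, by 1.95, that of the channel subunit Cnga3 described below. In the axoneme, the motor shared with cilia, 5 of 53 genes fell and 2 rose, beside 10.7% lower and 9.74% higher over all genes, and the median was -0.028. The axoneme gave 7 rises and 5 falls without KO replicates 7 and 8, with a median of 0.016. In edgeR, DESeq2 and limma with TMM factors its median was -0.098, -0.10 and -0.10. With all libraries the rises were Dnah5 and Dnah11, by 0.42 and 0.40, which encode outer arm dyneins of motile cilia, and the falls included the radial spoke gene Rsph9, by 0.40. Germ cell forms of metabolic enzymes gave 6 falls and 0 rises of 21, with a median of -0.10. Aldoart1 and Aldoart2, sperm aldolases that are near copies of each other and may share reads, fell by 0.44 and 0.22. Of 18 factors that direct spermatids 3 rose and 3 fell. Fhl5, the coactivator of Crem, the RFX factor Rfx3 and the transcription factor Sox5 fell by 0.39, 0.18 and 0.18, and the RNA-binding proteins Celf1 and Dazl and the X-linked transcription factor Taf7l rose by 0.35, 0.31 and 0.21, while Crem itself had a change of -0.24 that was not called. Without KO replicates 7 and 8 the medians moved to -0.092 for the tail, -0.073 for the acrosome and -0.075 for chromatin. The tail then held 16 falls and 2 rises, the acrosome 7 falls and 2 rises, and chromatin 2 falls and 1 rise. Metabolism held 7 falls (median -0.066), the channels 2 rises and 5 falls (median -0.055) and the factors 4 rises and 3 falls (median -0.019). Single libraries also moved the counts of falls. Leaving out WT replicate 2, WT replicate 3, WT replicate 4 or KO replicate 7 gave 12, 9, 10 and 11 falls in the tail, 5, 4, 3 and 4 in the acrosome, 2, 1, 1 and 2 in chromatin, 3, 3, 3 and 4 in metabolism and 2, 3, 2 and 3 among channels. Leaving out WT replicate 1 gave 6 acrosome and 3 channel falls, leaving out KO replicate 8 gave 2 chromatin falls, and leaving out KO replicate 5 gave 20 falls in the tail and 15 in the acrosome. Falls among the factors were 1 without WT replicate 2, WT replicate 3, WT replicate 4, KO replicate 7 or KO replicate 8, and those of the axoneme 2 without WT replicate 2, WT replicate 3 or WT replicate 4. In edgeR, DESeq2, limma with TMM factors and limma with library totals the falls were 26, 27, 26 and 20 in the tail, 12, 15, 13 and 9 in the acrosome, 10, 12, 11 and 8 in metabolism, 8, 8, 8 and 4 among channels, 7, 9, 6 and 3 in the axoneme and 6, 6, 6 and 4 among the factors.

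**Figure D2:**
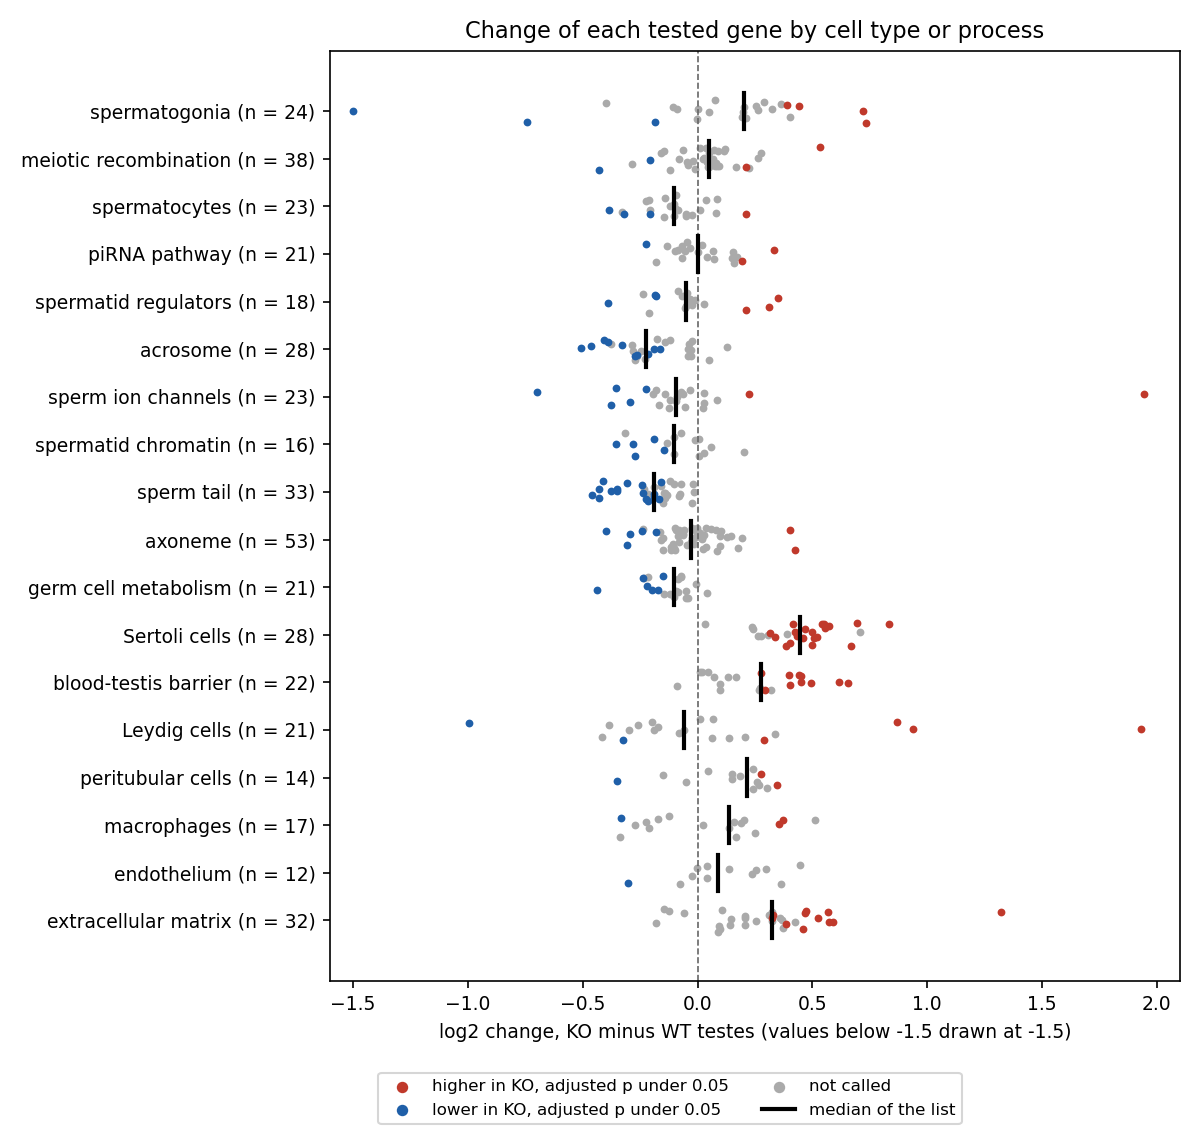
Each point is a tested gene, placed by its log2 change (KO minus WT, horizontal axis) in the row of its list, with the number of tested genes. Red genes were called higher and blue genes lower, grey genes were not called, and the black bar is the list median. Sertoli and barrier genes sit right of 0, with medians of 0.45 and 0.28, and sperm tail genes left of it, with a median of -0.19. Eomes, at -2.16, is drawn at -1.5.

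Promoter sequences of genes that fell are shown because RFX factors, which switch on cilium and spermatid genes through X-box sites, and Crem, which acts through the cyclic AMP response element (CRE), are the classic activators of spermatid transcription. The X-box half-site GTTGCCAT and the CRE TGACGTCA, which reads the same on both strands, were searched on both strands in windows of 300 bases (250 before to 50 after the start, RefSeq on GRCm38.p6). Neither motif holds the other. A promoter was on hand for 13072 of the 19329 tested genes. The X-box half-site was in 219 of 13072 (1.68%) of these, in 45 of 1463 (3.08%) of genes called lower, in 11 of 1360 (0.809%) of genes called higher and in 163 of 10249 (1.59%) of the rest. The CRE was in 422 of 13072 (3.23%) of all, 47 of 1463 (3.21%) of the lower and 42 of 1360 (3.09%) of the higher genes, so its share was nearly the same in each. In the lists the X-box half-site was in 1 of 29 (3.45%) tail promoters and 0 of 22 (0%) acrosome promoters, and the CRE in 1 of each. Shown are the 250 bases before the start of 3 genes with the X-box half-site and of 2 spermatid list genes with a CRE. They are read 5′ to 3′ on the gene's strand with the match in capitals. The genes were picked by low p among those with a named symbol, no overlap between groups and the match within these 250 bases. Some genes were left out of this pick, so those shown need not have the lowest p of all. Dnmt3l (chr10:78042037-78042286, plus strand), a partner of DNA methyltransferases in germ cells, was at 7.91, 7.76, 6.79 and 6.38 CPM in WT and 4.38, 3.85, 4.21 and 4.46 CPM in KO, without overlap. Tmem270 (chr5:134906734-134906983, minus strand) and Frs3os (chr17:47701997-47702246, minus strand) fell by 0.38 and 0.59. Spag4 (chr2:156064963-156065212, plus strand) is a tail and nuclear envelope protein, and Izumo1 (chr7:45621561-45621810, plus strand) was described above.
Dnmt3l: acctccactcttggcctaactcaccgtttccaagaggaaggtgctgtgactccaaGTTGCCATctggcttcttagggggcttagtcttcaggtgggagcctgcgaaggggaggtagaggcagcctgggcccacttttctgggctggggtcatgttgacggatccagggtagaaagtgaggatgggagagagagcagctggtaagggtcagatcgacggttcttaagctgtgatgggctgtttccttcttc
Tmem270: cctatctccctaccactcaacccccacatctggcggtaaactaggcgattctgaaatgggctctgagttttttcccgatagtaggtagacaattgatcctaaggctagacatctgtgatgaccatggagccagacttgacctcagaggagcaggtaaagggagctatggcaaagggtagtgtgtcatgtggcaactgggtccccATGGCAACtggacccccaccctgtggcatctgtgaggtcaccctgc
Frs3os: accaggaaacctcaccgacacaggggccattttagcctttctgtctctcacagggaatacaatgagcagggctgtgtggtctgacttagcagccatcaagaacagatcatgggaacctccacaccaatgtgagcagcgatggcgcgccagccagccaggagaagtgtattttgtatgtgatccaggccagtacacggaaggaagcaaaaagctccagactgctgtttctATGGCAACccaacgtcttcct
Spag4: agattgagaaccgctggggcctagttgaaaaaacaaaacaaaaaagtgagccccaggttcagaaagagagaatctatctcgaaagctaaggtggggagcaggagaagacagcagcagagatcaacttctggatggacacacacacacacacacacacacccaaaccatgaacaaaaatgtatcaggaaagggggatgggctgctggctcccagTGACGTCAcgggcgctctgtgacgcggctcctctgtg
Izumo1: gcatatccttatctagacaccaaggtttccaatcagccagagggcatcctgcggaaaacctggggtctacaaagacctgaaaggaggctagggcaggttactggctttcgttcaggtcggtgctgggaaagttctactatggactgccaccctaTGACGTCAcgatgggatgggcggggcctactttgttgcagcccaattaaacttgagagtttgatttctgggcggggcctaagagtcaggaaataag

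The match ends 188 bases before the start in Dnmt3l, 39 in Tmem270, 14 in Frs3os, 30 in Spag4 and 89 in Izumo1, counted with the base next to the start as 1. These are matches of letters, and binding was not measured.

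Most Sertoli cell genes rose and none fell. All 28 had a positive change, 20 rose and 0 fell, with a median of 0.45, beside 9.74% higher over all genes. The summed level of the list was 2273, 2387, 2077 and 2032 CPM in WT and 2619.9, 2694, 3676 and 2901 CPM in KO. Fshr, the receptor through which follicle-stimulating hormone acts on Sertoli cells, was at 2.55, 2.70, 2.31 and 1.57 CPM in WT and 3.87, 4.40, 4.53 and 4.46 CPM in KO (log2 change 0.83, SE 0.15, limma adjusted p = 0.00598). Wt1, a factor that keeps Sertoli identity, was at 66.6, 66.3, 60.1 and 57.2 CPM in WT and 83.6, 80.4, 112 and 101 CPM in KO (log2 change 0.55, SE 0.10, limma adjusted p = 0.00621), and Sox9, the sex determination factor, was at 28.2, 30.4, 26.4 and 25.3 CPM in WT and 34.4, 36.7, 53.1 and 49.1 CPM in KO. In each of these genes all KO libraries were above all WT libraries. Shbg, the carrier of sex steroids, rose by 0.67, the protease Ctsl by 0.57 and the androgen-driven homeobox gene Rhox5 by 0.69. Some of the signals that Sertoli cells send also rose: Gdnf, the stem cell factor for spermatogonia, by 0.52, Kitl, the ligand of Kit, by 0.43, and Dhh, the hedgehog ligand to Leydig and peritubular cells, by 0.42. Amh, the hormone of immature Sertoli cells, was at 1.99, 1.58, 1.24 and 1.51 CPM in WT and 2.40, 1.76, 3.52 and 3.81 CPM in KO, and its change of 0.71 missed the threshold (adjusted p = 0.0574). Without KO replicates 7 and 8, 19 of the 28 rose and 0 fell, with a median of 0.30; without WT replicate 3 or WT replicate 4, 12 rose and 0 fell in each fit. Rhox5, Gata1 and Tsx are among the X-linked genes of this list.

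The junction list held 10 rises and 0 falls of 22, beside 9.74% higher and 10.7% lower over all genes, with a median of 0.28. With KO replicates 7 and 8 left out, 9 rose and 0 fell, with a median of 0.21. Itga6, an integrin that binds basement membranes, was at 21.6, 20.4, 17.7 and 16.9 CPM in WT and 28.8, 29.6, 37.5 and 33.1 CPM in KO (log2 change 0.66, SE 0.092, limma adjusted p = 0.00227). The tight junction protein Cgn rose by 0.62, the gap junction protein Gja1 by 0.45, the catenins Ctnna1 and Ctnnb1 by 0.49 and 0.40, and Cldn11, a claudin of the barrier, by 0.40. Matrix genes gave 11 rises and 0 falls of 32, with a median of 0.32, but the size rested on KO replicates 7 and 8. Its summed level was 1061, 1133, 1045 and 1031 CPM in WT and 1180.2, 1210.5, 1728 and 1638 CPM in KO. With those libraries left out the median was 0.037, with 9 rises and 2 falls. Leaving out WT replicate 2, WT replicate 3 or WT replicate 4 gave 7, 6 and 6 rises, and leaving out KO replicate 5 gave 17. Col4a3, Col4a4 and Col4a5, chains of one collagen network of the basement membrane, rose by 0.33, 0.46 and 0.47, and the laminins Lama1 and Lamb2 by 0.57 and 0.59. Sparc, a secreted matrix protein, was at 230.4, 239, 229 and 224 CPM in WT and 288, 298, 417 and 331 CPM in KO. Peritubular cells gave 2 rises and 1 fall of 14, a share near the 20.5% called over all genes: the contractile gene Actg2 fell by 0.35, and Acta2 was at 51.2, 56.7, 48.6 and 49 CPM in WT and 52.5, 55.9, 78.5 and 51.6 CPM in KO and was not called. The list gave 1 rise without WT replicate 3, WT replicate 4 or KO replicate 7.

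Of 21 tested Leydig cell genes 4 rose and 2 fell, beside 9.74% higher and 10.7% lower over all genes, and the median was -0.061. Cyp21a1, the steroid 21-hydroxylase best known from the adrenal cortex, was at 2.86, 2.54, 1.87 and 1.98 CPM in WT and 8.25, 8.98, 7.89 and 13.9 CPM in KO (log2 change 1.93, SE 0.22, limma adjusted p = 0.00151). KO replicate 8 was the highest and no KO library reached down to WT. The gene overlaps Tnxa on the other strand and has a pseudogene copy, so its reads may be shared. Hsd3b1 and Hsd3b6, close copies of an enzyme early in the making of testosterone, changed in opposite directions. Hsd3b1 was at 90.8, 69.6, 57.9 and 59 CPM in WT and 138, 135, 169 and 92.9 CPM in KO (log2 change 0.94, SE 0.18, limma adjusted p = 0.00700). Hsd3b6, the form of adult Leydig cells, was at 61.9, 67.6, 67.3 and 67.6 CPM in WT and 26.1, 26.4, 49.6 and 40.5 CPM in KO (log2 change -0.99, SE 0.16, limma adjusted p = 0.00380). Hsd3b6 was lowest in KO replicates 5 and 6, and the lowest KO value of Hsd3b1 was in KO replicate 8. Counting may split reads that both copies share. Hsd17b3, which makes testosterone, rose by 0.29, and Pdgfra, a receptor of Leydig progenitors, rose by 0.87. Star, which delivers cholesterol to the mitochondrion, was at 77.2, 82.3, 91.3 and 90.7 CPM in WT and 66.7, 69.8, 123 and 54.8 CPM in KO, and Insl3, the Leydig peptide hormone, was at 513, 628, 562 and 523 CPM in WT and 502, 506, 828 and 537 CPM in KO. KO replicate 7 was the highest in both, and neither gene was called. With KO replicates 7 and 8 left out, 4 of the 21 rose and 8 fell, with a median of -0.19. Leaving out KO replicate 7 alone gave 6 falls and a median of -0.11, and leaving out KO replicate 8 alone gave 3 falls. Cholesterol synthesis genes gave 2 falls of 22, Fdps by 0.43 and Mvk by 0.52, and 8 falls without KO replicates 7 and 8.

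Markers of immune and vessel cells were low and mixed. Macrophage genes gave 2 rises and 1 fall of 17, beside 20.5% of all genes called, and the summed list was 310.2 to 331 CPM in WT and 293 to 309 CPM in KO. The fall was Aif1, by 0.33, a gene that spermatids also express, and the mannose receptor Mrc1 rose by 0.35. The defining macrophage genes Csf1r and Adgre1 had changes of 0.16 and -0.17 and were not called. Endothelial genes gave 0 rises and 1 fall of 12, Egfl7, a call lost in edgeR, DESeq2 and limma with TMM factors, where 2, 3 and 2 genes rose and 0 fell. Without KO replicate 6 the list gave 2 rises and 0 falls. Macrophage genes gave 0 rises and 3 falls without KO replicates 7 and 8, and 0 rises without WT replicate 3, WT replicate 4 or KO replicate 7. Of 4 lymphocyte genes tested Cd3d fell, by 0.76, in the fit of all 8 libraries.

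Among X-linked genes many rose and few fell. Of 742 X-linked genes tested, 178 (24%) rose and 4 (0.539%) fell, with a median change of 0.21, while on the autosomes 9.13% of 18479 rose and 11.2% fell, with a median of -0.0065. Among protein-coding genes, the KO libraries lay above all WT libraries in 40.8% of X-linked and 20.2% of autosomal genes. The share of all counts that came from the X was 1.19, 1.11, 1.12 and 1.12% in WT and 1.33, 1.33, 1.42 and 1.28% in KO, with no overlap. With library totals 286 X-linked genes rose and 4 fell, in a fit that also moved the autosomes to 2876 rises and 1532 falls. Falls stayed few on the X in the other fits, with 230 higher and 5 lower in edgeR, 239 and 5 in DESeq2 and 177 and 3 without KO replicates 7 and 8. Leaving out WT replicate 3 or WT replicate 4 gave 91 and 94 rises. Falls on the X numbered 8 without KO replicate 5 or KO replicate 6 and 0 without KO replicate 7. Single autosomes ranged from 6.29% higher on chromosome 8 to 11.4% on chromosome 3.

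The X-linked genes named here are mostly among those with the lowest p, a choice made after their values were seen. Ccnb3, a cyclin of early meiosis, was at 7.91, 8.01, 7.05 and 7.35 CPM in WT and 13.4, 13.8, 17.2 and 15 CPM in KO (log2 change 0.86, SE 0.088, limma adjusted p = 0.000881). All KO libraries were above all WT libraries by a wide gap. Gprasp1 and Gprasp2, neighbouring genes that sort G protein-coupled receptors, rose by 0.56 and 0.56. Ogt, the enzyme that adds N-acetylglucosamine to nuclear and cytosolic proteins, was at 64.1, 60.2, 55.9 and 59 CPM in WT and 82.9, 81.5, 98.5 and 88.4 CPM in KO (log2 change 0.52, SE 0.070, limma adjusted p = 0.00202), and Nono, an RNA-binding protein of paraspeckles, rose by 0.56. Usp9x, a deubiquitinase, was at 259.8, 239, 229 and 233 CPM in WT and 303, 295, 344 and 299 CPM in KO, without overlap, and the RNA helicase Ddx3x rose by 0.42. Nxf3, an RNA export factor, was at 61.2, 57.9, 48.5 and 48.4 CPM in WT and 79, 78.6, 93 and 82 CPM in KO. The 4 falls on the X were Asb9, Awat2, Tsga8 and Pcdh11x, by 0.32, 0.73, 0.29 and 0.59.

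**Figure D3:**
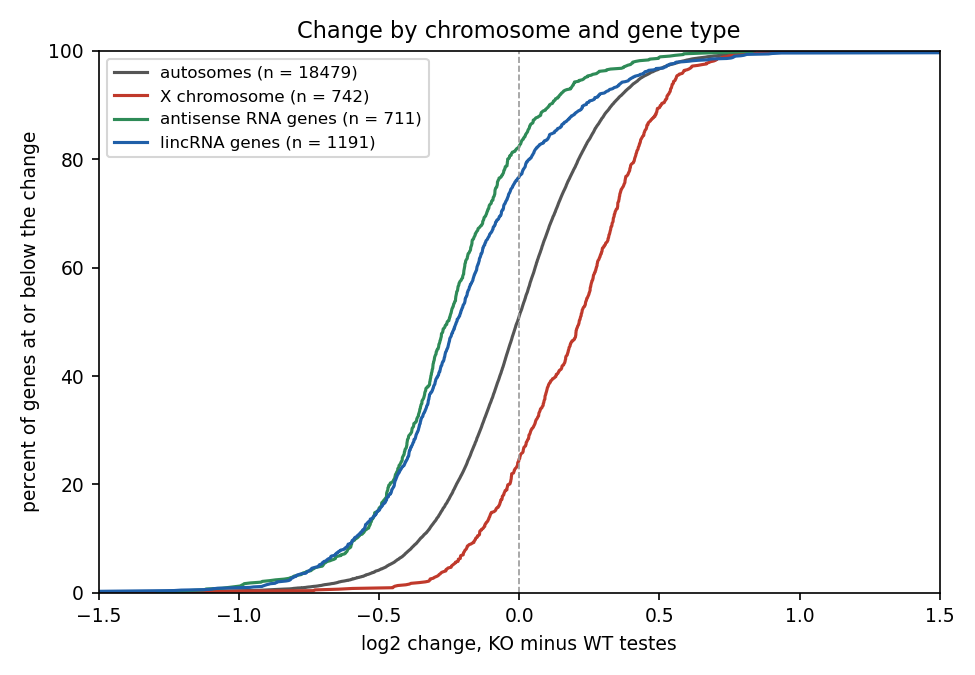
Percent of genes at or below each log2 change (KO minus WT) for autosomal, X-linked, antisense RNA and lincRNA genes, one curve each. The X curve lies right of the autosomes, with a median of 0.21 against -0.0065, and the 2 noncoding curves lie left, with medians of -0.26 and -0.22.

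To set X-linked genes beside their copies elsewhere, 14 pairs of an X gene and a Y-linked or autosomal copy were listed from general knowledge, after the X result was seen, and both members of all 14 were tested. Not all copies are germ cell genes: Kdm5d, Eif2s3y, Utp14b and Cstf2t also averaged at least 1 CPM in WT liver and in WT cerebellum. The log2 change of the X gene was above that of its copy in 11 of the 14, 6 X genes rose and 0 fell, and 3 copies rose and 1 fell, with medians of 0.28 for X genes and 0.019 for copies. Rbmx, an X-linked splicing factor, was at 11.5, 9.84, 9.49 and 9.46 CPM in WT and 14.7, 12.5, 15.1 and 13 CPM in KO, and its autosomal retrocopy Rbmxl2 was at 61.4, 75.5, 68.2 and 66 CPM in WT and 54, 56.9, 58.3 and 59.7 CPM in KO. Rbmx rose by 0.35 and Rbmxl2 fell by 0.28. Ddx3x rose by 0.42 and its autosomal copy D1Pas1 had a change of 0.065 that was not called. Pgk1 and Pgk2, the X-linked and germ cell forms of phosphoglycerate kinase, were both near WT, with changes of -0.0063 and -0.087. In 5 pairs the copy is on the Y. Among the histone demethylases the changes were 0.42 for Kdm5c and 0.45 for Kdm5d, and among the deubiquitinases 0.41 for Usp9x and 0.29 for Usp9y, and all 4 genes rose. Eif2s3x, a subunit of a translation initiation factor, rose by 0.28, while Eif2s3y had a change of 0.071 that was not called. Zfx, a zinc finger factor, rose by 0.36, and the change of 0.33 of Zfy1 was not called. For Uba1 and Uba1y, ubiquitin-activating enzymes, the change of 0.18 on the X was not called and the Y copy rose by 0.27. Of 93 Y-linked genes tested 10 rose and 0 fell, beside 9.74% higher over all genes, with a median of 0.088. Several are members of near-identical families whose reads cannot be placed with confidence. The rises named are therefore Usp9y and Uba1y, given above, Kdm5d, at 8.38, 7.69, 7.56 and 6.94 CPM in WT and 11.4, 9.61, 13.3 and 10.7 CPM in KO, and Uty, higher by 0.29.

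Mitochondrially encoded transcripts rose in part. Of 15 tested 7 rose and 0 fell, beside 9.74% higher over all genes, with a median of 0.39. Among subunits of complex I, mt-Nd5 was at 301, 262, 243 and 246 CPM in WT and 382, 351, 399 and 360.5 CPM in KO (log2 change 0.55, SE 0.075, limma adjusted p = 0.00205), and mt-Nd4, mt-Nd2 and mt-Nd1 rose by 0.48, 0.49 and 0.39. The cytochrome gene mt-Cytb rose by 0.47, with KO values from 569 to 644 CPM and WT values from 419 to 516. mt-Co1, the most abundant of them, was at 3999.6, 3608, 3446 and 3396 CPM in WT and 4179.5, 4101, 4551 and 3945 CPM in KO, and its change of -0.051 was not called. Quantile normalization gives the most abundant genes nearly the same value in every library, and scaling by library totals gave mt-Co1 a change of 0.22, which was called higher (limma adjusted p = 0.0232). All mitochondrial genes together took 0.807, 0.679, 0.638 and 0.628% of counts in WT and 0.903, 0.804, 0.860 and 0.751% in KO. The groups overlap, with WT replicate 1 above KO replicates 6 and 8.

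Genes little used in liver and cerebellum held more falls than genes found in all 3 tissues. This split was made after the results were seen, from the WT liver and cerebellum libraries of the series: a gene under 0.1 CPM on average in both was called testis-restricted, and a gene at 1 CPM or more in both was called broad. Among autosomal protein-coding genes, 3.31% rose and 26.4% fell of 1237 testis-restricted genes (median -0.19), and 12.1% rose and 6.71% fell of 10000 broad genes (median 0.049). On the X, 8.26% rose and 0.917% fell of 218 testis-restricted genes and 37.5% rose and 0% fell of 291 broad genes. In either class the X held the larger share of rises and the smaller share of falls. Genes are not independent, so these shares are given as counts, with no test of their difference. Testis-restricted genes of all kinds gave 94 rises and 741 falls with all libraries and 199 and 450 without KO replicates 7 and 8, and their median moved from -0.20 to -0.055. Broad genes gave 1411 rises and 690 falls with all libraries and 1287 and 842 without KO replicates 7 and 8, and their median moved from 0.058 to 0.024. Scaling by library totals gave 168 rises and 555 falls, with a median of -0.12, among testis-restricted genes and 2357 rises and 500 falls, with a median of 0.13, among broad genes.

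More antisense RNA and lincRNA genes fell than rose, but not every noncoding type did so. Of 927 genes of the type TEC, an annotation class for genes not yet proven, 102 (11%) rose and 36 (3.88%) fell. Of 107 sense intronic genes 12 (11.2%) rose and 1 (0.935%) fell, beside 9.74% higher and 10.7% lower over all genes. Of 711 genes annotated as antisense RNAs 189 (26.6%) fell and 10 rose, with a median of -0.26, and of 1191 lincRNA genes 219 (18.4%) fell and 45 rose, with a median of -0.22. The share of all counts from long noncoding genes was 5.03, 5.33, 4.83 and 4.73% in WT and 4.71, 4.71, 5.33 and 6.21% in KO, with overlap between the groups and the highest value in KO replicate 8. That share also holds TEC and sense intronic genes, so it does not describe the antisense and lincRNA genes alone. Protein-coding genes were balanced in the main fit, with 1678 rises and 1501 falls of 15069, while library totals gave 3184 rises and 1536 falls over all genes. TEC and sense intronic genes are not counted as long noncoding in what follows. On the autosomes 1.57% rose and 25.9% fell of 1339 testis-restricted long noncoding genes and 11.1% rose and 5.07% fell of 217 broad ones. The lowest p among those whose log2 CPM averaged 3 or more, named after their values were seen, was that of 1700126A01Rik, a testis lincRNA at 29.3, 25.6, 25.1 and 27.6 CPM in WT and 16.6, 16.9, 14.9 and 16.5 CPM in KO (log2 change -0.83, SE 0.082, limma adjusted p = 0.000715). 1700100L14Rik, on the strand opposite to Ice1, was at 17.8, 16.7, 18.5 and 19.4 CPM in WT and 12.6, 13.1, 11.1 and 11.2 CPM in KO. In both genes all KO libraries were below all WT libraries. Without KO replicates 7 and 8, 103 antisense genes fell and 10 rose, with a median of -0.12, and 100 lincRNA genes fell and 41 rose, with a median of -0.077. Leaving out WT replicate 3, WT replicate 4 or KO replicate 7 gave 94, 93 and 109 falls of antisense genes and 97, 99 and 117 of lincRNA genes, and leaving out WT replicate 1 or KO replicate 8 gave 143 and 140 of the latter. Scaling by library totals gave 20 rises and 122 falls, with a median of -0.15, among antisense genes and 64 rises and 140 falls, with a median of -0.12, among lincRNA genes. Reads of an antisense gene and its partner cannot be told apart if strand was not used in counting. Among other genes called and named here, Ctsl, Ctnna1, Ctnnb1, Dhh, Pdgfra, Brca2, Lin28a, Gtpbp1, Ccna1, Cdc25c, Dnah11, Dnmt3l, Frs3os, Kcnk3, Col4a3, Hsp90b1, Dnajb9, Nfkb2, Tmprss13, Sox5, Zfx, Uba1y and mt-Nd5 overlap an annotated gene on the other strand.

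Most stress and death lists held calls in both directions. Beside 20.5% of all genes called, the share was lower for the integrated stress response, apoptosis and interferon lists and higher for the chaperone, p53 and NF-kB lists. Of 31 genes of the integrated stress response 2 rose and 2 fell, with a median of 0.12 that moved to 0.011 without KO replicates 7 and 8. Slc7a1, an arginine transporter, was at 60.5, 58.5, 56.1 and 51.9 CPM in WT and 69.8, 74, 100.3 and 95.5 CPM in KO (log2 change 0.53, SE 0.11, limma adjusted p = 0.00942), highest in KO replicates 7 and 8. Asns, the asparagine synthetase that Atf4 drives, fell by 0.20. The chaperones of the endoplasmic reticulum gave 5 rises and 3 falls of 23. Hspa5, its main chaperone, was at 441, 424, 414 and 436 CPM in WT and 509.7, 505, 524 and 453 CPM in KO (log2 change 0.28, SE 0.059, limma adjusted p = 0.00985), and Canx and Hsp90b1 rose by 0.29 and 0.24, while Herpud1 and Dnajb9, parts of the disposal of misfolded proteins, fell by 0.26 and 0.30. In the apoptosis list 6 of 40 genes rose and 1 fell, with a median of 0.10. Of the 6, Bcl2l2, Birc3, Xiap and Cflar are inhibitors of cell death and rose by 0.47, 0.61, 0.33 and 0.36. Bcl2l2 was at 39.5, 37.8, 36.1 and 35.4 CPM in WT and 50.5, 48.5, 58.1 and 59.1 CPM in KO, without overlap. Cycs and Pmaip1, which act on the side of death, rose by 0.49 and 0.43, and the death receptor Tnfrsf10b fell by 0.43. Targets of p53 gave 3 rises and 2 falls of 20, with a median of 0.13. Genes of the NF-kB response gave 7 rises and 3 falls of 32, with a median of 0.13 that moved to -0.012 without KO replicates 7 and 8, and interferon-stimulated genes gave 1 rise of 17. Among them Nfkb2, a subunit, rose by 0.61 and its inhibitor Nfkbia by 0.30, and Jag1, a Notch ligand, fell by 0.36. Cytosolic chaperones gave 2 rises and 3 falls of 22. These counts moved with single libraries and with the scaling. With KO replicates 7 and 8 left out the apoptosis list gave 4 rises and 0 falls, with a median of 0.047, the p53 targets 2 rises and 1 fall, with a median of 0.072, and the cytosolic chaperones 5 rises and 3 falls. No cytosolic chaperone rose without WT replicate 3, WT replicate 4 or KO replicate 7. Apoptosis rises were 14 with library totals, 10 in DESeq2 and 3 without WT replicate 4, and p53 target rises were 5 in DESeq2 and 1 without WT replicate 2, WT replicate 3 or WT replicate 4. NF-kB rises were 4 without WT replicate 3, WT replicate 4 or KO replicate 7, stress response rises were 6 without KO replicate 5 and 1 without any 1 of the WT libraries, KO replicate 7 or KO replicate 8, with 0 falls without WT replicate 2, WT replicate 4 or KO replicate 7, and endoplasmic reticulum chaperone rises were 3 in edgeR and 9 without KO replicates 7 and 8.

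Among named genes whose log2 CPM averaged 1 or more and whose groups did not overlap, the largest rise was that of Cnga3 (chr1:37214434-37263384), a subunit of a cyclic nucleotide-gated cation channel known from cone photoreceptors, at 1.12, 1.02, 0.869 and 0.880 CPM in WT and 4.29, 4.29, 4.26 and 3.53 CPM in KO (log2 change 1.95, SE 0.14, limma adjusted p = 8.66e-05). All KO libraries were well above all WT libraries, and KO replicate 8 was the lowest of them. Padi2, a peptidylarginine deiminase, was at 3.46, 4.78, 3.28 and 3.49 CPM in WT and 8.28, 8.40, 13.3 and 11.2 CPM in KO (log2 change 1.34, SE 0.17, limma adjusted p = 0.00186), with KO replicates 7 and 8 the highest, and an annotated gene lies on its other strand. Further rises past 1 on the log2 scale were Col11a1, a fibrillar collagen, by 1.32, Lrrn1, a leucine-rich repeat membrane protein, by 1.25, the potassium leak channel Kcnk3 by 1.15 and the muscle sodium channel Scn4a by 1.06. Amy1, an amylase, was at 12.9, 10.7, 10.8 and 11.6 CPM in WT and 25.6, 24.6, 25.8 and 19.1 CPM in KO (log2 change 0.94, SE 0.11, limma adjusted p = 0.00151), and Lepr, the leptin receptor, rose by 0.91.

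Rundc3a (chr11:102393403-102402555), a RUN domain protein, was at 36.2, 42.2, 39.7 and 40.6 CPM in WT and 18.3, 19.8, 17.1 and 15.8 CPM in KO (log2 change -1.26, SE 0.090, limma adjusted p = 8.66e-05). Its KO libraries held less than its lowest WT value by a wide gap. Prokr1, a prokineticin receptor, was at 2.84, 2.70, 2.37 and 2.42 CPM in WT and 0.896, 0.917, 0.683 and 0.761 CPM in KO (log2 change -1.76, SE 0.14, limma adjusted p = 0.000198), and Gal3st2, a sulfotransferase of glycans, at 2.71, 3.17, 2.47 and 3.08 CPM in WT and 0.847, 1.10, 0.954 and 1.03 CPM in KO (log2 change -1.63, SE 0.16, limma adjusted p = 0.000715). In both, all KO libraries were below all WT libraries and below 1 CPM or close to it, so that the genes were tested through their WT level. Slc38a1, a glutamine transporter, was at 6.77, 7.86, 7.12 and 6.84 CPM in WT and 2.92, 2.94, 5.76 and 2.81 CPM in KO (log2 change -1.14, SE 0.18, limma adjusted p = 0.00378): KO replicate 7 stood between WT and the 3 other KO libraries. Nectin4, an adhesion protein, fell by 1.05, Gpr3, a receptor that signals without a ligand, by 1.07, the homeobox gene Gsc2 by 1.24, the Wnt inhibitor Sost by 1.21 and the urate transporter Slc22a12 by 1.15. Gpr3 and Slc22a12 overlap genes on the other strand.

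Some genes of lower level are named here after their values were seen. Each was past 1 CPM in 1 group only, and so had to differ in order to be tested. Sox14 (chr9:99874106-99876170), a transcription factor studied in the brain, was at 2.59, 2.20, 2.64 and 2.14 CPM in WT and 0.0960, 0.110, 0.218 and 0.104 CPM in KO. These are 83, 71, 79 and 68 counts in WT and 3, 3, 8 and 3 counts in KO. Sox14 and Thumpd1 had the lowest log2 changes of the 19329 genes. That of Sox14 was -5.29 in limma (SE 0.31, adjusted p = 1.75e-05), -4.15 in edgeR and -4.20 in DESeq2, so its size depends on how a few counts are treated. Asprv1, a retroviral-type protease of the skin, was at 0.498, 0.559, 0.334 and 0.471 CPM in WT and 2.21, 2.16, 2.05 and 2.14 CPM in KO (log2 change 1.96, SE 0.16, limma adjusted p = 0.000198). Its KO libraries were all well above its WT libraries. Mt3, a metallothionein, was at 1.78, 1.37, 2.37 and 2.20 CPM in WT and 0.512, 0.220, 0.901 and 0.138 CPM in KO, with KO values that varied among themselves (log2 change -2.69). Bpifb3 and Tmod4 fell by 1.45 and 1.42, and Ly6d and Tmprss13 rose by 1.38 and 1.45.

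**Figure D4:**
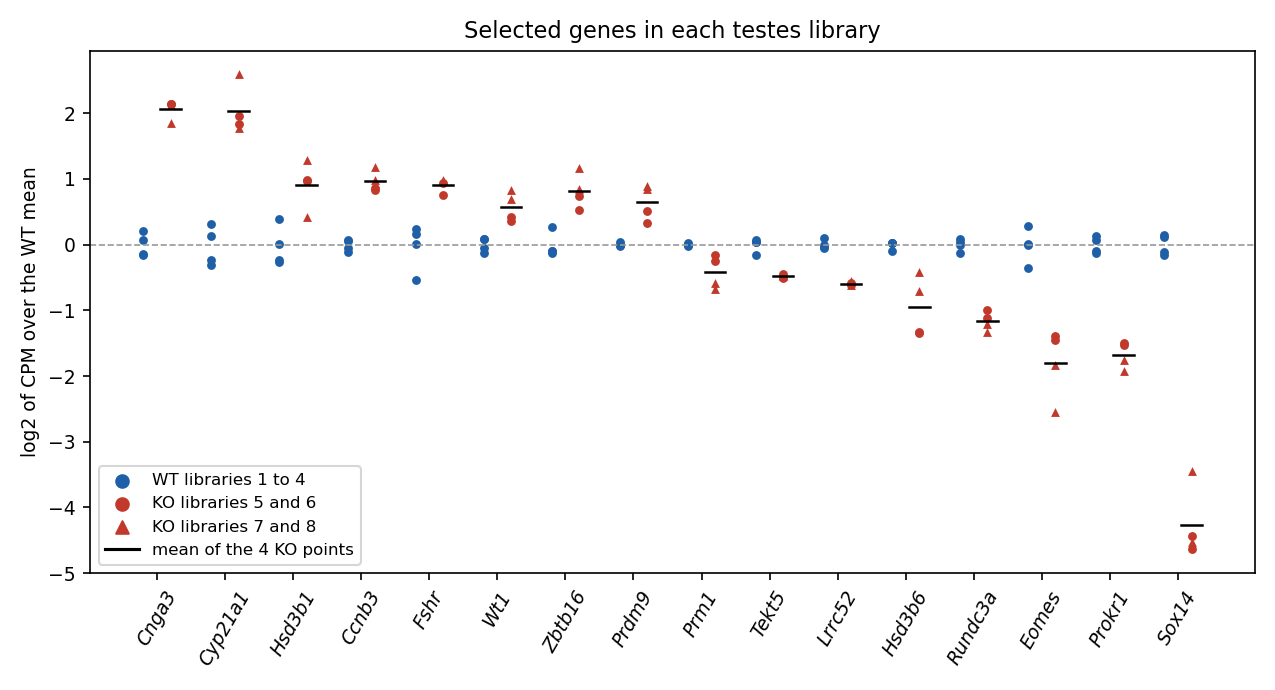
Level of 16 genes in each testes library, as log2 of CPM over the WT mean of the gene. Blue points are WT libraries, red circles KO replicates 5 and 6, red triangles KO replicates 7 and 8, and the black bar is the mean of the KO points. Cnga3 and Cyp21a1 lie near 2 in KO and Sox14 below -3, while Prm1 and Hsd3b6 separate the pairs of KO libraries.

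Because Thumpd1 serves tRNAs for leucine and serine, the codons of the changed genes were counted in the longest complete coding sequence of each protein-coding gene (GENCODE M21), which was found for at least 98.8% of each class. Genes called higher had longer coding sequences, with a median of 642 codons against 372 for genes called lower and 462 for the rest. Leucine made up a median of 9.12% of codons (quartiles 7.52% to 10.8%) in genes called higher, 10.4% (8.62% to 12.4%) in genes called lower and 9.86% in the rest. The quartile ranges of the classes overlap widely. The leucine codons UUA and CUA alone were in the other order, with medians of 1.38% in genes called higher, 1.21% in genes called lower and 1.31% in the rest. For serine the medians were 8.07%, 7.91% and 7.74%. Length and leucine share were looked at together, with genes cut by length into 4 equal groups. In the shortest group (up to 284 codons) 5.75% rose and 13.2% fell, and in the longest (at least 752 codons) 18.6% rose and 5.14% fell. Within the shortest group the median leucine share was 9.29% in higher and 10.7% in lower genes, and within the longest 9.0% and 10.2%, so the order was the same in each. For serine the order turned with length: the medians of higher and lower genes were 7.24% and 7.47% in the shortest group and 8.85% and 8.52% in the longest, and the groups between had the order of the shortest. Restricting to autosomes left the leucine medians at 9.18% and 10.4%. These are descriptions of sequences across genes, which are not independent, and translation was not measured in these libraries.

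**Figure D5:**
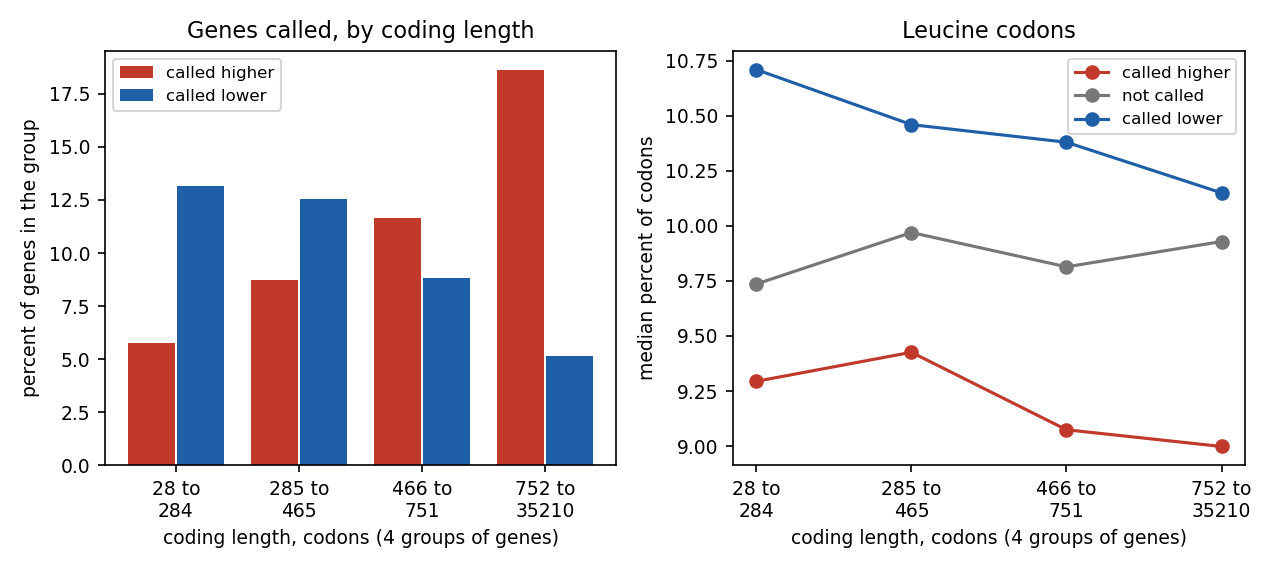
Protein-coding genes in 4 equal groups of coding length, in codons (horizontal axis). Left, the percent of genes in each group called higher (red) or lower (blue), and right, the median percent of leucine codons in genes called higher, called lower and not called, on an axis that does not start at 0. The percent called higher grows from 5.75% to 18.6% with length, and genes called lower have the highest share of all leucine codons together in every group.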

How the data were processed

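Total RNA of 8 testes libraries (4 WT, 4 KO) was measured by stranded, ribosomal RNA-depleted, paired-end sequencing (Illumina Stranded Total RNA Prep with Ribo-Zero Plus). The authors aligned reads to the mouse genome mm10 with STAR and deposited RSEM expected counts per gene, in 1 table of 24 libraries. Versions and the strand setting of counting are not given in the sources used here. All 24 columns matched a label, and 0 columns were left over.

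Expected counts were kept unrounded for limma and rounded to whole numbers for edgeR and DESeq2. Genes at 1 CPM or more in at least 4 of the 8 libraries were tested with voom, quantile normalization and limma (limma 3.58.1, R 4.3.3), with Benjamini-Hochberg adjustment over all 19329 genes and a threshold of 0.05. Log2 changes are from this fit and CPM values from raw library totals. Two-sided tests were used throughout. On simulated counts of the 19329 genes with 200 changed by a log2 change of 1, 94% were recovered and 4.08% of calls were false. These rates belong to that setting and are not those of the KO and WT comparison. The called changes there had a median size of 0.39, and recovery of changes of that size was not tested. The alternatives were edgeR 4.0.16, DESeq2 1.42.0, TMM factors, library totals, no filter, a filter of 0.5 CPM in 2 libraries, sample weights, leaving out each library, and leaving out KO replicates 7 and 8.

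The members, the gene lists and the named genes were chosen with earlier results of these data known. Named by rule were Thumpd1, Nat10, the markers of each cell type, up to 5 called members of each list with the lowest p, and the 15 largest rises and falls of called genes whose log2 CPM averaged 1 or more and whose WT and KO libraries stood apart, without predicted genes and clone names. Other list members and single genes were picked after their values were seen, as were the X-linked pairs, tissue classes, motifs and codon counts. Gene positions and biotypes are from GENCODE M21 (GRCm38), and promoters are from RefSeq (GRCm38.p6).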

Additional observations from a re-analysis of the deposited data

Results flagged for a closer look

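Each group holds 4 libraries, and a library was singled out when its gap to the nearest other, divided by the range of the group, was above Dixon's 95% critical value. Of 418 groups examined, over the gene lists and the genes named, 29 passed it, and chance passes about 1 in 20. The causes were not tested. KO replicate 7 lay above the rest of its group in the summed Leydig list (2149 CPM), Slc38a1 (5.76 CPM), Gja1 (109 CPM), Insl3 (828 CPM), Acta2 (78.5 CPM), Ctnnb1 (184 CPM), Gprasp1 (56.8 CPM), Nfkbia (15.9 CPM), Sox14 (0.218 CPM) and Usp9x (344 CPM). WT replicate 1 lay above the rest of its group in Zbtb16 (11.2 CPM), Iars (47.9 CPM), Kitl (33 CPM), Uty (11.9 CPM) and mt-Nd2 (209 CPM). WT replicate 2 lay above the rest of its group in the summed epididymis list (292 CPM), Padi2 (4.78 CPM), Adam7 (15.3 CPM) and Crisp1 (95.2 CPM). WT replicate 1 lay below the rest of its group in Sox5 (105 CPM), Tekt5 (139 CPM) and Hsd3b6 (61.9 CPM). KO replicate 8 lay below the rest of its group in Cnga3 (3.53 CPM) and Hsp90b1 (439 CPM). WT replicate 4 lay above the rest of its group in Slc22a12 (3.61 CPM) and Aurkc (14.9 CPM). WT replicate 2 lay below the rest of its group in the summed p53 target list (454 CPM). WT replicate 3 lay below the rest of its group in Col11a1 (0.936 CPM). KO replicate 6 lay below the rest of its group in Bpifb3 (0.587 CPM).

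The gaps of Crisp1, Adam7 and the epididymis list belong to the epididymal transcripts of WT replicate 2 described above. Those of Insl3, Acta2 and the Leydig list are genes of cells between and around the tubules, all highest in KO replicate 7.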

How the results depend on the processing

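Totals of called genes moved by over 1.5 times in some fits. Sample weights called 6107 genes, 3014 of them higher, and scaling by library totals called 3184 higher and 1536 lower, in place of 1882 and 2075, so the balance of directions depends on the scaling. Leaving out 1 library gave 1711 to 4913 calls in all, 756 to 2418 higher and 950 to 2495 lower. With an unadjusted p, 7145 genes were under 0.05. edgeR called 4442 genes and DESeq2 5039, and 3529 and 3658 of the 3957 were called there in the same direction. Fitting every gene with no filter called 2891. Of the 238 changes of named genes, 219 in edgeR and 220 in DESeq2 stayed on their side of the threshold, and 1 changed sign in each: Crisp1, at -0.37 in edgeR and -0.36 in DESeq2. The change of mt-Co1 was 0.22 with library totals, and that of Kit was -0.26 without KO replicates 7 and 8. Calls of named genes were lost most often without WT replicate 4 (82) or WT replicate 3 (77), beside 50 without WT replicate 2 and 29 without WT replicate 1. Leaving out KO replicate 7 or KO replicate 8 lost 47 and 35. No gene changed sign with a call on either side when 1 library was left out. 

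Sample weights moved counts by over 1.5 times in lists that include these. Rises and falls were 14 and 7 for ribosomal proteins, 4 and 9 for Leydig cells, 8 and 3 for recombination, 8 and 8 for the axoneme, 1 and 5 for macrophages, 0 and 8 for cholesterol synthesis, 2 and 7 for spermatocytes, 9 and 7 for the NF-kB response, 10 and 3 for apoptosis, 9 and 3 for endoplasmic reticulum chaperones, 4 and 4 for the stress response, 5 and 3 for cytosolic chaperones, 5 and 2 for p53 targets and 3 and 5 for spermatid regulators.

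Medians of lists moved more than the spread of their libraries, the SD of a list's mean log2 level across the libraries of a group, in these cases. In edgeR, DESeq2 and limma with TMM factors respectively, the medians were -0.21, -0.21 and -0.21 for spermatocytes, -0.054, -0.058 and -0.055 for the piRNA pathway, -0.16, -0.16 and -0.16 for spermatid regulators, -0.20, -0.20 and -0.20 for spermatid chromatin, -0.22, -0.22 and -0.23 for germ cell metabolism, -0.013, -0.016 and -0.017 for stalled ribosomes, and -0.099, -0.10 and -0.10 for cytosolic chaperones. In DESeq2 and TMM they were -0.29 and -0.29 for the sperm tail, -0.10 and -0.10 for the axoneme and 0.073 and 0.074 for endoplasmic reticulum chaperones, and in DESeq2 -0.17 for sperm ion channels. The epididymis list changed sign, to -0.042 in edgeR and -0.039 in DESeq2. Scaling by library totals gave 0.11 for meiotic recombination, -0.10 for spermatid regulators, 0.25 for p53 targets, 0.11 for interferon genes and 0.11 for tRNA synthetases. Sample weights also gave 0.10 for matrix, 0.067 for spermatogonia, -0.10 for the acrosome, -0.10 for the sperm tail and 0.020 for the NF-kB response, moves of over 1.5 times that were within that spread, and 0.091 for peritubular cells, -0.052 for macrophages, 0.055 for p53 targets and 0.060 for endoplasmic reticulum chaperones. Without KO replicates 7 and 8, a choice made after the data were seen, the medians were -0.012 for spermatogonia, 0.052 for peritubular cells, -0.080 for macrophages, 0.037 for matrix, -0.012 for the NF-kB response and 0.068 for endoplasmic reticulum chaperones. Leaving out 1 library gave -0.029 to 0.014 for the piRNA pathway. The cause was not tested.

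No paired analysis was possible because the WT libraries are numbered 1 to 4 and the KO libraries 5 to 8, so the groups share no number. Genes near 1 CPM rest on few counts a library, and a change of such genes that was not called was not detectable at this depth. With 4 libraries a group, a missed threshold does not show that a gene kept its level.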
